A study of Mus musculus with 6 samples.

Results

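The Iroquois genes Irx1 to Irx6 encode homeodomain transcription factors, and each of the 6 had a single probe set on the arrays, out of 17306 probe sets that were not controls. They were taken by symbol, as a family chosen with earlier results of these data known. The samples were habenulae dissected from adult Chat DW167 mice, which are 6 to 12 weeks old and carry a bacterial artificial chromosome transgene. In such lines a tag on ribosomes is expressed where regulatory DNA of the choline acetyltransferase gene is active. Ribosomes of cholinergic neurons, which in the habenula lie in its medial part, are then purified with the messenger RNA they carry (translating ribosome affinity purification, TRAP). RNA of these ribosomes was put on 3 arrays (IP), and polysomal RNA left unbound in each preparation, taken here as the tissue at large, on 3 more (UB). All 6 arrays therefore come from the same line, and the labels used here give neither sex nor how many mice were pooled. RNA left unbound includes that of cholinergic neurons whose ribosomes were not captured, so UB is a mixture and not tissue without those neurons.

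Iroquois proteins belong to the TALE class of homeodomain factors, which carry a 3-residue insertion in the homeodomain, and they bind DNA as patterning factors of neural tube, heart, limb and retina. In the mouse the 6 genes lie in 2 clusters, Irx1, Irx2 and Irx4 on chromosome 13 and Irx3, Irx5 and Irx6 on chromosome 8, which descend from the duplication of 1 ancestral cluster, so that Irx1 pairs with Irx3, Irx2 with Irx5 and Irx4 with Irx6. In the embryonic diencephalon, from which habenula and thalamus arise, Irx3 is known from the chick as a factor that sets the competence to form thalamus.

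The RefSeq promoter table (assembly GRCm38.p6) held 3 of the 6 genes, Irx2, Irx3 and Irx4, but not Irx1, Irx5 or Irx6. The 250 bases before the annotated start of these 3 genes are shown because the array values of Irx2 and Irx3 were high while those of Irx4 were at or near the lowest level. The window of Crnde is added because this long noncoding RNA is the only gene with a probe set between Irx genes of a cluster, and its values are given further on. They lie at chr13:72628570-72628819 (Irx2, plus strand), chr8:91801655-91801904 (Irx3, minus strand), chr13:73260247-73260496 (Irx4, plus strand) and chr8:92356121-92356370 (Crnde, minus strand). Each is written 5′ to 3′ on the gene's strand, with CG dinucleotides in capitals.
Irx2: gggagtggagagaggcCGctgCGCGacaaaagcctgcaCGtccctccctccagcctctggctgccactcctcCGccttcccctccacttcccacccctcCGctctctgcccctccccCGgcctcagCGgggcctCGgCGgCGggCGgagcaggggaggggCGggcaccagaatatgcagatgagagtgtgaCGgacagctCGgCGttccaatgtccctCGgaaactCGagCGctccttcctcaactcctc
Irx3: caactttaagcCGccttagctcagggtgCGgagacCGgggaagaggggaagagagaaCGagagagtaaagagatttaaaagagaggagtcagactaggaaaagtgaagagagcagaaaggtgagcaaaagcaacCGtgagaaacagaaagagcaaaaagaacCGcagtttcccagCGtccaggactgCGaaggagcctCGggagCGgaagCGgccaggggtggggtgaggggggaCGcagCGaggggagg
Irx4: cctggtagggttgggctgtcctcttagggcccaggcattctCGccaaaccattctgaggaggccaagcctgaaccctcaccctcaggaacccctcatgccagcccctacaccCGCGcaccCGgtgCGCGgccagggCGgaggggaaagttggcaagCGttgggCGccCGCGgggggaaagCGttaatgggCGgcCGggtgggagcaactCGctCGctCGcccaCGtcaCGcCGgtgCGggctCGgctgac
Crnde: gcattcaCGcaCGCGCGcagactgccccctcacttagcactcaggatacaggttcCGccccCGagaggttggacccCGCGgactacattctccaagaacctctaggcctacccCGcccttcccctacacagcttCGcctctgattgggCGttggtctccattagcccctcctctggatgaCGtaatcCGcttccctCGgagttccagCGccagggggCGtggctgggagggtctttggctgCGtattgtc

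These windows held 19 (Irx2), 13 (Irx3), 22 (Irx4) and 17 (Crnde) CG dinucleotides, against a median of 6 over 32851 windows of the same length. The share of all windows with fewer CG was 80.3% for Irx2, 68.5% for Irx3, 85.2% for Irx4 and 76.5% for Crnde. The dim gene Irx4 thus had the window richest in CG of the 4. The letters ACANNTGT, which read the same on both strands and are bound by an Iroquois protein of Drosophila, were found in none of the 4 windows and in 6.31% of all windows. The letters TATAAA, searched on both strands, were found in none of the 4 either and in 12.4% of all windows.

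Setting IP against UB asks which messenger RNAs are richer or poorer on the ribosomes of the cholinergic neurons than in the tissue as a whole. Irx1, Irx2, Irx3, Irx5 and Irx6 were all higher in IP, by 4.66-fold, 6.33-fold, 7.72-fold, 6.58-fold and at least 2.56-fold. Irx4 was under the level taken as signal, 50 on the linear scale, on all 6 arrays. Of the 5 members tested, 5 were called at least 2-fold higher (adjusted p under 0.05 in limma), where 14.3% of the 8960 tested probe sets were called so. Calls were common in this comparison: 30.9% of tested probe sets were called higher at any size and 43.5% lower. The median difference of the 5 was 2.72 on the log2 scale, and that of all tested probe sets was -0.17. Irx1, Irx2, Irx3 and Irx5 had signal on all 6 arrays. Irx6 passed the filter on dim probe sets through its IP arrays alone, so it had to differ, and the count and median that include it only describe those 5 genes. In bulk RNA, fewer cells of a type and less RNA per cell cannot be told apart.

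**Figure D1:**
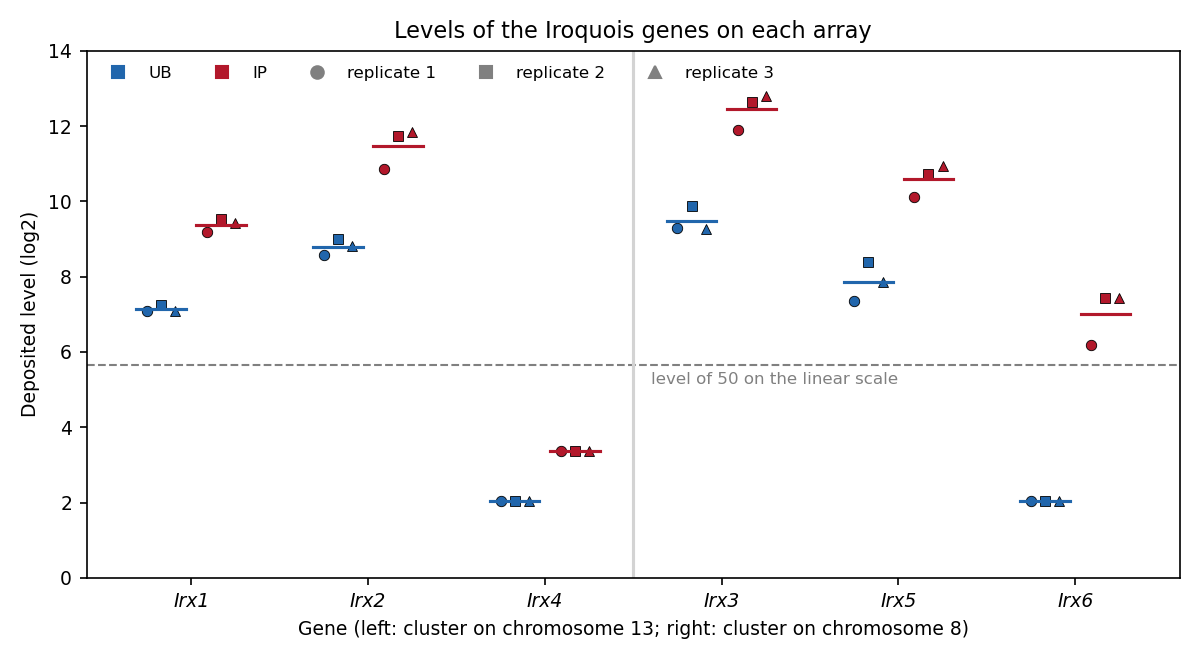
Deposited log2 level of each Iroquois gene on each array, with IP in red and UB in blue, replicates by symbol and bars at the mean of 3 arrays. The dashed line is 50 on the linear scale (5.644 on the log2 scale). The IP arrays lay above the UB arrays for each gene, and Irx4 stayed under the line in both fractions.

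In the chromosome 13 cluster, Irx1 (probe set 16371_at), a factor of heart, lung and kidney development, had log2 levels of 9.19, 9.53 and 9.42 on the IP arrays of replicates 1, 2 and 3. On the UB arrays it stood at 7.10, 7.23 and 7.09. The fractions did not overlap, and the lowest IP array was above the highest UB array by far more than the arrays of a fraction differed. The difference, with the offset between fractions taken from the biotinylated controls, was 2.22 ± 0.10 (log2, SE, 3 arrays per fraction, limma adjusted p = 2.84e-05).

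Irx2 (16372_at), which in the chick takes part in forming the cerebellum, had log2 levels of 10.85, 11.74 and 11.83 in IP. Its UB levels were 8.58, 8.99 and 8.81. Replicate 1 was the lowest of both fractions, and again the fractions did not overlap. The difference was 2.66 ± 0.31 (log2, SE, limma adjusted p = 0.0011).

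Irx4 (50916_at), known for keeping the identity of ventricular heart muscle, had the same log2 level, 3.36, on all 3 IP arrays and 2.05, the lowest level there was, on each UB array. GCRMA, the authors' method of normalization, gave 50.6% of all probe sets an equal value on the 3 IP arrays and 47.7% on the 3 UB arrays. Both values were under 50, so Irx4 was not tested, and no fold is given. Irx4 is the only member without signal on any array.

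In the chromosome 8 cluster, Irx3 (16373_at), a patterning factor of the neural tube, had log2 levels of 11.88, 12.64 and 12.81 in IP. It stood at 9.29, 9.88 and 9.27 in UB. The fractions were parted by more than their spread, with IP at 12.44 ± 0.49 and UB at 9.48 ± 0.34 (SD, n = 3 each). The difference of 2.95 ± 0.32 (log2, SE, limma adjusted p = 0.00085) was exceeded by 1.82% of all tested probe sets.

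Irx5 (54352_at), which retinal bipolar cells and the repolarization gradient of the heart wall depend on in the mouse, had log2 levels of 10.12, 10.73 and 10.95 in IP. In UB the levels were 7.36, 8.39 and 7.85, the widest spread in UB among the 6 genes (SD 0.51). The fractions did not overlap. The difference was 2.72 ± 0.36 (log2, SE, limma adjusted p = 0.00177).

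Irx6 (64379_at), a factor of retinal bipolar cells, had log2 levels of 6.17, 7.44 and 7.44 in IP and 2.05, the lowest level there was, on each UB array. The IP level of replicate 1 stood close above the limit of 50. The means were 7.02 ± 0.73 in IP and 2.05 in UB (SD, n = 3), and with the UB level set to 50 Irx6 was at least 2.56-fold higher. The limma adjusted p was 0.000242 on the values as measured and 0.0295 with levels under 50 raised to 50. Irx6 passed the filter through IP alone and so had to differ, whatever these p-values. Its measured difference, 4.96 on the log2 scale, depends on how GCRMA places absent signal and is not a fold. In the same state, at 50 or more on all 3 IP arrays and on no UB array, were 352 of the tested probe sets (3.93%).

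**Figure D2:**
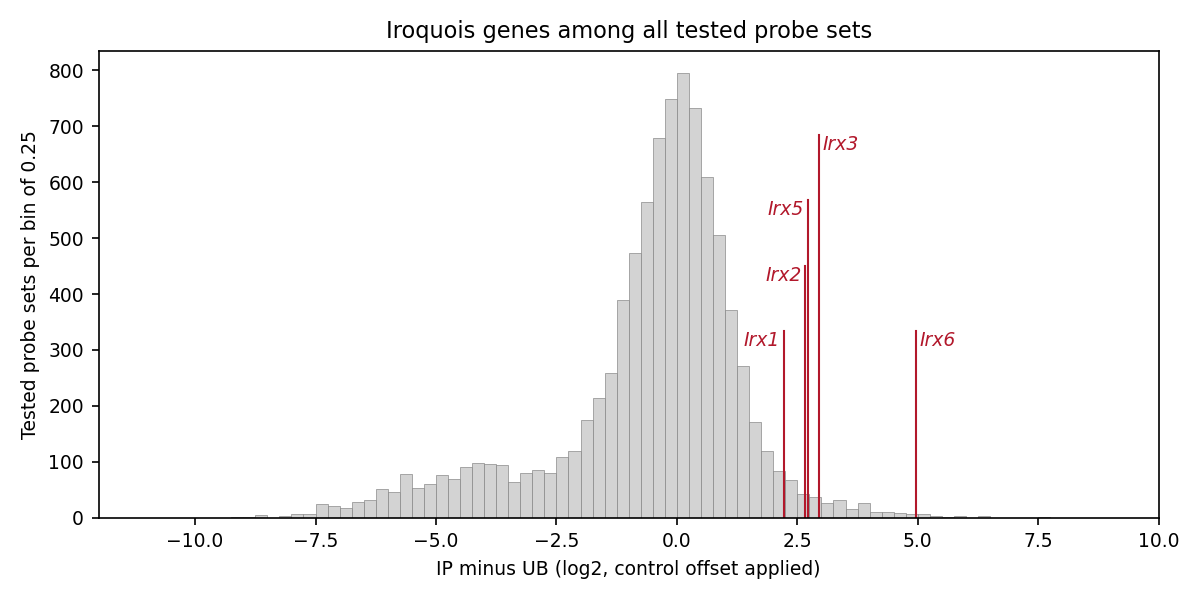
Number of tested probe sets by their difference between IP and UB on the log2 scale, in bins of 0.25, with the 5 tested Iroquois genes marked by red lines. Irx1, Irx2, Irx5 and Irx3 lie between 2.22 and 2.95, and Irx6 is shown at its measured 4.96, which is not a fold because UB was under 50.

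All 3 IP levels lay above all 3 UB levels for the 5 tested members. The same held for 33.4% of tested probe sets, a share that normalizing the fractions apart can raise. The differences of Irx1, Irx2, Irx3 and Irx5 were exceeded by 3.49%, 2.32%, 1.82% and 2.23% of tested probe sets. In the order of these 4 differences, Irx1, Irx2, Irx5 and Irx3 from low to high, neighbours did not differ beyond their standard errors of 0.10 to 0.36, except that Irx2 exceeded Irx1 by 0.44 ± 0.26 (SD over 3 preparations), in all 3 preparations.

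Set against each other, the 2 clusters were alike in that each had members with strong signal in IP. Of their remaining members, Irx4 was without signal and Irx6 had signal in IP only. Each gene had a single probe set, and probe sets of different genes differ in affinity. Levels are therefore not ranked between genes, and this need not be a difference between the clusters. Among the members with signal in both fractions, the difference between IP and UB averaged over Irx1 and Irx2 was 2.16, 2.50 and 2.66 in preparations 1, 2 and 3. Averaged over Irx3 and Irx5 it was 2.66, 2.54 and 3.30. The chromosome 8 genes were thus above those of chromosome 13 by 0.50, 0.03 and 0.65, a mean of 0.39 ± 0.32 (SD, n = 3 preparations). The direction was the same in all 3 preparations, but the mean was close to its spread, and preparation 2 showed next to no difference. No test is given, since the genes are not replicates, and the offset between fractions cancels in this contrast.

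Taken by pairs of paralogues, the difference was uneven. Irx3 exceeded its paralogue Irx1 by 0.50, 0.47 and 1.21 in the 3 preparations (mean 0.73 ± 0.42, SD). Irx5 and its paralogue Irx2 differed by 0.49, -0.40 and 0.08 (mean 0.06 ± 0.45, SD), with no common direction. Within the clusters, Irx3 and Irx5 differed by -0.16, 0.42 and 0.43, and Irx2 exceeded Irx1 by 0.18, 0.45 and 0.70. The mean of this last gap, 0.44 within a cluster, was no smaller than the mean of 0.39 between the clusters. Of the third pair, Irx6 had signal in IP and Irx4 had none.

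**Figure D3:**
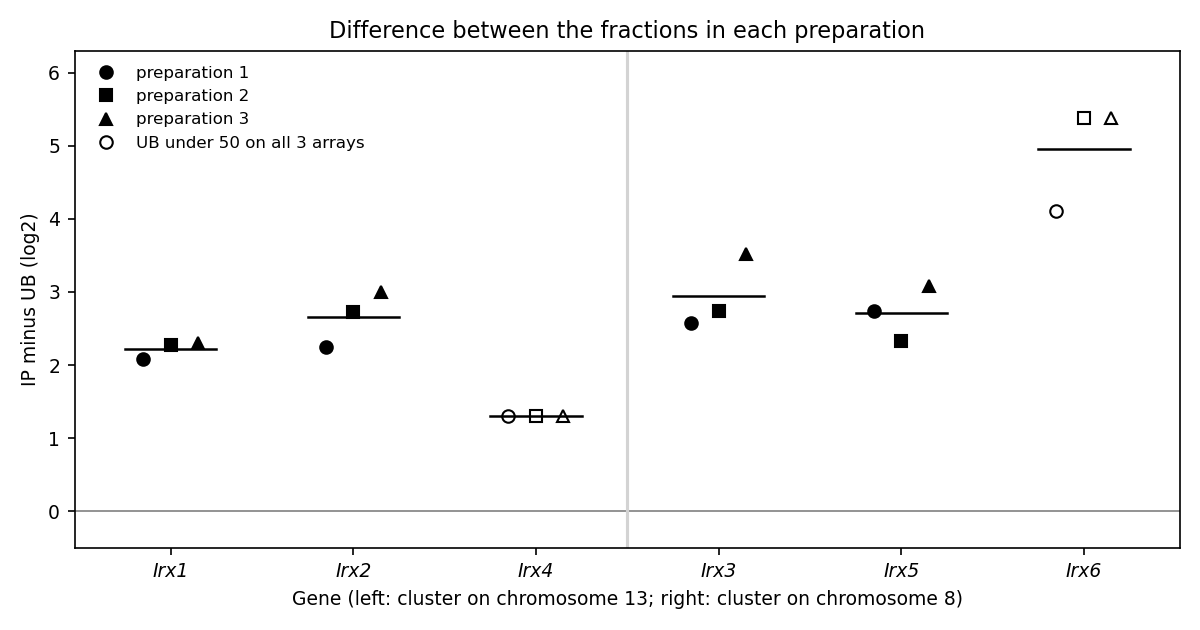
Difference between the IP and UB arrays of each preparation on the log2 scale for the 6 genes, with the control offset applied and bars at the mean. Open symbols mark genes whose UB arrays were all under 50, whose differences are not folds. Among the 4 genes with signal in both fractions, Irx1 has the closest values (2.08 to 2.31) and Irx3 ranges from 2.58 to 3.52.

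Within a fraction, the members' levels shared their lowest or highest array. The IP array of replicate 1 was the lowest of the IP arrays for each of the 5 tested members. Among tested probe sets with unequal IP values it was the lowest in 45.4% of 7171, and in 59% of the 1172 that were called higher by at least 2-fold. The UB array of replicate 2 was the highest for each of the 4 members with unequal UB values, as it was in 33.9% of 7382 tested probe sets and 46% of 1033 of those called higher by at least 2-fold. The tested members lay on average 0.54 below their IP mean on replicate 1 (log2), and all probe sets called higher by at least 2-fold lay 0.13 below theirs.

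Markers of the purified neurons had this order in part. The IP array of replicate 1 was the lowest for 6 of the 10 markers listed for cholinergic medial habenula and the highest for 3, Pou4f1, Nhlh2 and Nwd2. Slc18a3, the vesicular acetylcholine transporter, had log2 levels of 11.07, 11.95 and 12.27 in IP and 3.93, 4.31 and 3.93 in UB (at least 68.8-fold higher). The 10 markers were all called higher, of which 2, Slc18a3 and Slc5a7, passed the filter through IP alone and so had to differ. They had a summed linear level of 82690, 102400 and 105300 in IP and 12200, 19760 and 14610 in UB. The 6 Iroquois genes summed to 7409, 12400 and 13650 in IP and to 1319, 1942 and 1443 in UB. The part of this order of arrays in the differences was not tested. Without both arrays of replicate 1 the differences of Irx1, Irx2, Irx3 and Irx5 stayed between 2.19 and 3.03, and all were called.

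Markers of other cells of the dissected tissue were in large part without signal in IP, but some kept signal there. All 5 astrocyte markers, 3 of 4 oligodendrocyte markers measured, 3 of 4 of lateral habenula and 3 of the 5 tested of thalamus were under 50 on all IP arrays. These passed the filter through UB alone and had to be lower in IP, so their calls add nothing. The others of these lists, Mbp, Gap43, Rora and Prkcd, had signal in both fractions and were called lower. Their mean log2 levels in IP were 7.12, 7.45, 5.86 and 7.10. The summed level of the astrocyte list was 22.97 on each IP array against 1939 to 2101 in UB, with 2 of its members, Gfap and Slc1a3, at the lowest level in IP. That of the thalamic list was 222 to 256 in IP against 8898 to 10220 in UB. Of 5 microglial markers 3 had signal in UB only, and C1qa was at 7.77 ± 0.17 in IP and 6.88 ± 0.78 in UB (SD, n = 3) and not called (limma adjusted p = 0.120). The 5 endothelial and mural markers were not tested, and of 5 markers of ependyma and choroid plexus Ccdc153 had signal in UB only, while Ttr was called lower but kept log2 levels of 9.67 to 11.39 in IP.

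By the likeness of their pattern, each gene being centred on its own mean over the 6 arrays, Irx2, Irx3 and Irx5 were close to each other across the clusters. The root mean square difference was 0.193 for Irx2 and Irx3, 0.197 for Irx2 and Irx5 and 0.199 for Irx3 and Irx5 (log2). Only 7 to 11 tested genes outside the family were closer to any of the 3 than these were to each other. Irx1 was farther from its cluster neighbour Irx2 (0.327) than Irx2 was from Irx3.

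The 3 tested genes most like Irx5 included 2 known habenular genes, Tac2, the neurokinin B precursor (0.111), and the orphan receptor gene Gpr151 (0.118), after St6galnac5 (0.0828). Those most like Irx3 were Stox1 (0.0961), Nr4a2, a nuclear receptor of dopaminergic neurons (0.106), and Klc3 (0.145). Most like Irx2 were Gdpd5 (0.112), Tmem176b (0.122) and the POU factor gene Pou3f1 (0.141), and most like Irx1 were Ptpdc1, Cox14 and Ormdl2 (0.0530 to 0.0599). Irx6 was most like Pbx4 (0.114), itself a TALE homeobox gene, then Gpr26 (0.167) and Gfra1 (0.248). These are distances over 6 arrays that fall into 2 groups, so they mostly reflect the size of the difference between fractions.

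The other TALE homeobox genes, many of which encode partners of Hox proteins and of each other on DNA, went both ways. Of the 11 listed that had a named probe set 7 were tested, with a median of -0.10 on the log2 scale. Called higher were 3 and lower 2, beside 30.9% and 43.5% of all tested probe sets. Of these 5, only Pbx3 had signal in both fractions. Pbx4 and Pknox2 passed the filter through IP alone, and Meis1 and Mkx through UB alone, so these 4 had to differ. Pbx4 was at 6.81, 7.93 and 7.89 in IP and 2.76, 2.78 and 2.78 in UB (log2 levels), at least 3.69-fold higher (limma adjusted p = 0.000166). Replicate 1 was again the lowest IP array, as for Irx6. Pknox2 was at least 5.46-fold higher and Pbx3 4.16-fold higher.

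Meis1 and Mkx were lower in IP by at least 1.89-fold and 3.78-fold. Meis3 (-0.11 ± 0.36) and Pbx2 (-0.10 ± 0.13, log2, SE) were not called. Their sign turned with the scaling: when both fractions were given the same median over the whole table they stood at 1.45 and 1.46 and were called higher, as they were with quantile normalization (0.94 and 0.28) and as Pbx2 was without IP replicate 1 (0.10). Meis2, Pknox1, Tgif1 and Tgif2 were not tested. Compared with these, every tested Iroquois gene was on the IP side, but the difference between the families was not tested.

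Of the 14 listed transcription factors of habenula and adjoining thalamus that had a named probe set, 11 were tested. Called higher were 6 and lower 4, beside 30.9% and 43.5% of all tested probe sets. Pou4f1, which medial habenular neurons depend on, and Nhlh2, a basic helix-loop-helix factor, were 3.35-fold and 4.17-fold higher. Both differences, 1.74 ± 0.12 and 2.06 ± 0.11 (log2, SE), were on average below those of Irx1, Irx2, Irx3 and Irx5. In preparation 1, however, Nhlh2 (2.31) was above Irx1 (2.08) and Irx2 (2.25). Zic4 (3.13 ± 0.02) was within the standard error of Irx3 (0.32), and Etv1 (2.55 ± 0.05) within that of Irx2 (0.31). The small errors of Zic4 and Etv1 rest on equal values, Zic4 on the 3 IP arrays and Etv1 on the 3 UB arrays.

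Zic1, a zinc finger factor, was 1.39-fold and Lhx9 1.21-fold higher, but neither was called when each array was scaled on its own controls. The Lhx9 call was also lost without IP replicate 3, without UB replicate 1 and without both arrays of replicate 1. Tcf7l2, a Wnt effector of habenula and thalamus, and Lhx2 were 2.39-fold and 2.42-fold lower, and turned higher (0.30 and 0.28 on the log2 scale) with equal medians. Gbx2 and Rorb, both of thalamus, were lower by at least 23.9-fold and 3.09-fold, with signal in UB only, so that they had to differ. Zic2 was not called (-1.08 ± 0.87) except when each array was scaled on its own controls. Nhlh1, Isl1 and Dbx1 were not tested.

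**Figure D4:**
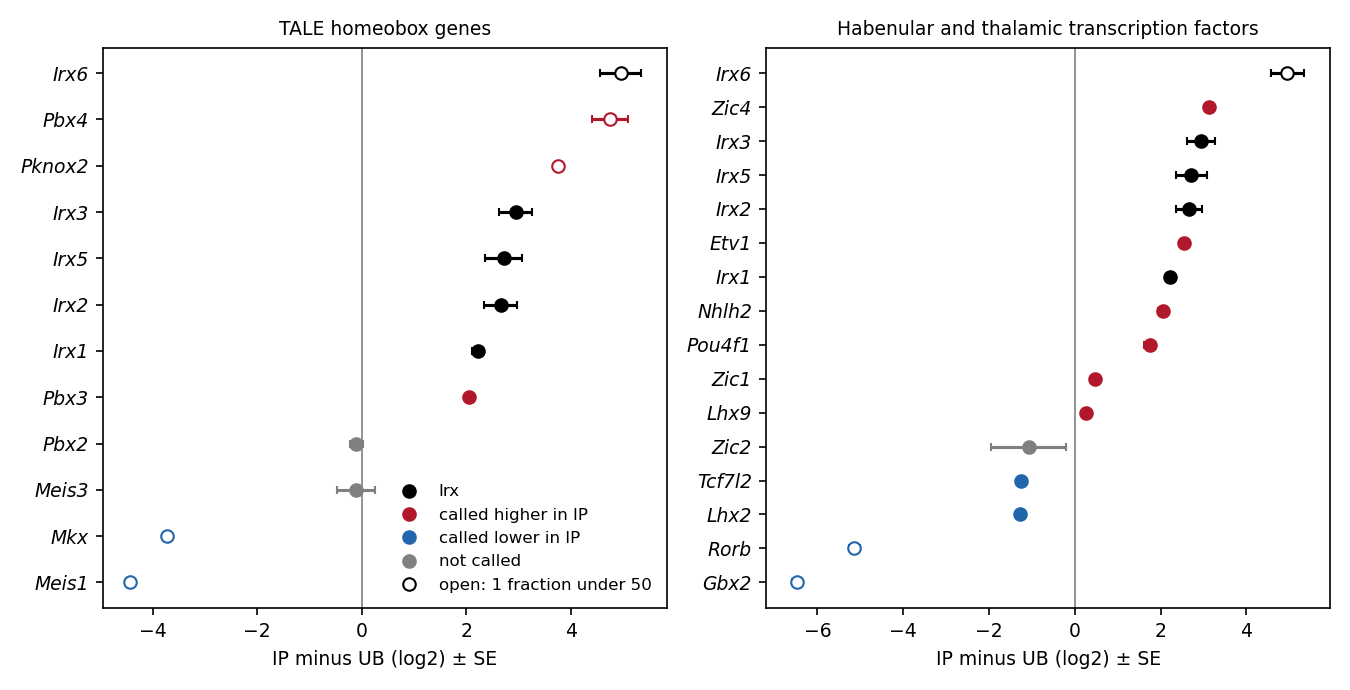
Difference between IP and UB (log2, ± SE from limma, error bars hidden where smaller than the symbol) for tested TALE homeobox genes on the left and listed transcription factors on the right, each with the 5 tested Iroquois genes in black. Open symbols mark genes with 1 fraction under 50 on all arrays. Iroquois genes lie from 2.22 upward, while both lists reach from well below 0 to above 3.

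The genes lying next to the clusters, within 1 Mb of their first or last member in GRCm38.p6, did not share one direction. Of 34 neighbours with a probe set, 18 near the chromosome 13 cluster and 16 near that of chromosome 8, 6 each were tested. On chromosome 13, 4 were called higher and 2 lower, and on chromosome 8, 2 were called higher and 3 lower. Of all tested probe sets 30.9% were called higher and 43.5% lower, so calls both ways are common among any genes. A difference of the neighbours from these shares was not tested.

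On chromosome 8 the only neighbour lying inside the cluster, Crnde, had signal in IP only, as Irx6 had. Crnde (71296_at), a long noncoding RNA between Irx3 and Irx5, had log2 levels of 8.09, 8.01 and 8.31 in IP and 2.26 on all 3 UB arrays. It was at least 5.56-fold higher (limma adjusted p = 3.11e-07), but it passed the filter through IP alone and so had to differ. Unlike the Iroquois genes, its lowest IP array was that of replicate 2.

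Fto, an RNA demethylase gene and the nearest gene with a probe set beside Irx3, was without signal in IP, at 5.56 on all 3 arrays, just under the limit of 50 (5.644). In UB it was at 7.49, 7.50 and 7.50, and it was at least 3.65-fold lower in IP (limma adjusted p = 2.89e-09), having passed the filter through UB alone, as Gm19935 did. So the direction changed between neighbours with a probe set at that end of the cluster, though genes without a probe set lie between them. Rbl2, a relative of the retinoblastoma gene, was 3.33-fold higher, Gm19935 at least 4.38-fold lower and Chd9, a chromatin remodeller, 1.40-fold lower. Chd9 turned higher (1.07 on the log2 scale) with equal medians and lost its call when each array was scaled on its own controls. Aktip was not called except with equal medians, where it was higher (1.60). On the side of Irx6, Mmp2, Lpcat2, Capns2, Slc6a2 and 6 carboxylesterase genes of the Ces1 group had no signal in either fraction.

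On chromosome 13 no gene with a probe set lay between Irx1, Irx2 and Irx4. Beyond Irx4, Ndufs6, a subunit of respiratory complex I, was 1.80-fold higher (0.84 ± 0.03, log2, SE) and Mrpl36, a mitochondrial ribosomal protein gene, 3.44-fold higher. The Mrpl36 call was lost without both arrays of replicate 3. Brd9, a chromatin remodelling subunit, was 2.79-fold and Clptm1l 1.70-fold higher, though the Clptm1l call was lost without IP replicate 1 or 3, without UB replicate 2 or 3, without each preparation in turn and with quantile normalization. Tppp, a tubulin-binding gene of oligodendrocytes, was 4.05-fold lower, and Exoc3, an exocyst subunit, 1.77-fold lower, the latter turning higher (0.74 on the log2 scale) with equal medians. The dopamine transporter gene Slc6a3, Tert and 10 other neighbours were without signal, as Irx4 was.

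**Figure D5:**
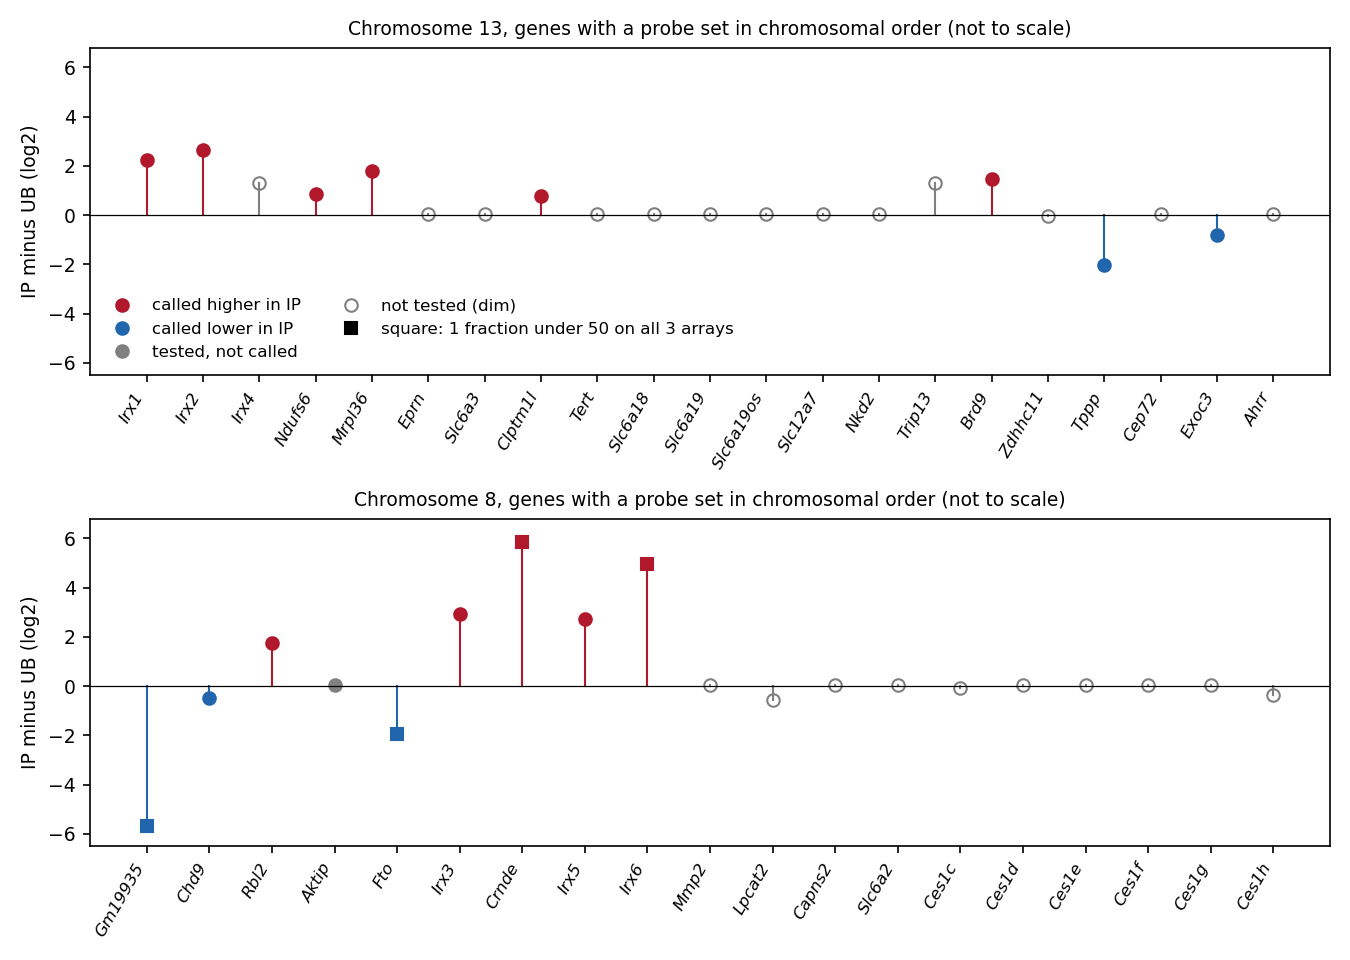
Difference between IP and UB (log2) for the Iroquois genes and the neighbours with a probe set, in chromosomal order and not to scale. Red and blue mark calls higher and lower in IP, filled grey a gene tested and not called, open grey dim genes that were not tested, and squares genes with 1 fraction under 50 on all arrays. Among genes with a probe set on chromosome 8, Irx3, Crnde, Irx5 and Irx6 were higher. Fto was lower on one side, and genes without signal lay on the other. Crnde, Irx6 and Fto passed the filter through 1 fraction alone and so had to differ. Genes without a probe set, which are not shown, lie between some of these.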

How the data were processed

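The 6 arrays were grouped by their titles into 3 IP and 3 UB. Per the labels' protocols, 20 ng of purified RNA went through 2 cycles of amplification before biotin labelling. The authors deposited log2 levels per probe set (1 per gene) made with GCRMA, per the submitters' processing notes, without its version. The authors normalized within groups and recommend scaling on the biotinylated controls. The lowest level was 2.10 on IP arrays and 2.05 on UB arrays.

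Here the mean difference of 18 such controls (0.0156, SD over controls 0.131) was subtracted from the IP arrays. The mean of these controls per array ran from 11.21 to 11.55 in IP and from 11.13 to 11.75 in UB (log2). The offset was taken as fixed, so the printed SE leave out its uncertainty over arrays. Printed levels are as deposited. Of 17306 probe sets that were not controls, 8960 with a level of 50 or more on at least 3 of 6 arrays were tested with limma 3.58.1 (R 4.3.3), variances following the mean level, two-sided, with Benjamini-Hochberg adjustment. A call is an adjusted p under 0.05. Where a fraction was under 50 on all arrays, the fold was computed against 50. Symbols came from the platform annotation (16464 probe sets with 1 symbol, 842 with none or more than 1), and neighbours and promoters from RefSeq. Scaling, filter, variance model, pairing and left-out arrays were varied. The fit was tested on simulated arrays drawn independently of each other, which does not check it for tied values or for pairing. The labels pair IP and UB by replicate, and deviations from group means of same-numbered arrays correlated over probe sets (r = 0.592, 0.483 and 0.279 for replicates 1, 2 and 3). Between different numbers r ran from -0.514 to 0.315, the highest for IP replicate 3 with UB replicate 2, above IP replicate 3 with its own UB array.

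The named genes are the 6 members, all measured genes of the 3 lists (other TALE genes, habenular factors, neighbours), Slc18a3, and per tested member the 3 tested genes with the smallest root mean square difference; cell markers come from 8 short lists. Members and lists were chosen with earlier results of these data known. The 6 arrays limit the precision, and replicates are called biological in the labels. Python 3.11.15 with pandas 2.3.3 and matplotlib 3.10.9 made the figures.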

Additional observations from a re-analysis of the deposited data

How the results depend on the processing

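Irx1, Irx2, Irx3 and Irx5 kept their direction and call under all 20 alternatives, and Irx6 under the 18 that could test it. The filter at 100 and leaving out tied probe sets dropped Irx6. The differences ranged from 2.03 to 3.78 for Irx1, 2.37 to 4.22 for Irx2, 2.66 to 4.51 for Irx3 and 2.30 to 4.28 for Irx5, the highest with equal medians of the whole table, which moved every probe set by 1.56. Irx6 ranged from 1.36, with levels under 50 raised to 50, to 6.51. With no filter Irx4 was called as well (1.30), from equal values on all arrays of a fraction. With an array or a preparation left out, 5 members were called higher and 0 lower each time, and the difference between the clusters ranged from 0.26 to 0.57. With quantile normalization that difference was 0.23. The printed SE and p come from the fit without pairing by replicate. With the replicate number as a block the differences were as before (2.72 for Irx5), 5 members were called higher, and no call of a member changed. The limma adjusted p of each of the 5 rose, to between 0.000588 (Irx1) and 0.0047 (Irx3).

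Over all probe sets, 2772 were called higher and 3900 lower. With equal medians the counts were 6645 and 1583, and with no filter 8557 and 5998. With tied probe sets left out 6180 were tested, of which 2030 were called higher and 2123 lower. With an array or preparation left out, 2053 to 3151 were called higher and 3080 to 4239 lower. Signal under 50 limits what can be said of Irx4 in both fractions and of Irx6 in UB.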
